A study of Mus musculus with 14 samples.

Results

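The comparison described here set neuronal nuclei of a group titled Reactivated (n = 3 libraries) against those of a group titled Basal (n = 4), 7 of the 14 ATAC-seq libraries of a study of memory in mouse hippocampus. The libraries were chosen by their titles. The regions were those with a mean of at least 0.83 RPKM over the 14 libraries, which 172024 of 191271 listed regions met. RPKM values are read numbers divided by the length of the region in kilobases and by the read total of the library. That mean includes the 7 compared libraries, but the rule used no difference between the groups.

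All mice of both groups were of the strain ArcCreERT2 x R26R-STOP-floxed eYFP, with the genotype given as +/+, and their age and sex were not given in the sources used here. In this line a tamoxifen-dependent Cre, driven by Arc, removes a stop cassette and leaves eYFP in cells in which Arc was active while the drug was present. Mice of both groups were kept in the dark, were given a single dose of 4-hydroxytamoxifen shortly before contextual fear conditioning, and had a foot shock on day 0. Basal tissue was collected on day 0 with no recall. Reactivated mice were exposed to the fear-inducing tone and context again on day 5, and their collection day is labelled 5, 6 and 7 for replicates 1, 2 and 3, so that day and replicate cannot be told apart. Nuclei were stained for NeuN, Arc and GFP and sorted, and hippocampi of 10 to 12 mice were pooled to reach 10000 nuclei. The labels do not say which stained population was kept for either group, nor which mice went into which library. A difference between the groups need not be one of time. The p-values set such a difference against the spread between libraries, which may be technical in part. Early nuclei (n = 3, day 0, no recall, with the same treatment label as Basal) and Late nuclei (n = 4, day 5, no recall) entered the same model and are given beside the results where they help.

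In ATAC-seq a transposase inserts sequencing adapters into DNA that is not covered by nucleosomes, so that read density marks promoters, enhancers and other open regulatory DNA. Arc is an immediate early gene, switched on within neurons by synaptic activity, and it is widely used to tag the sparse sets of hippocampal neurons that take part in encoding or recalling a memory. NeuN is a nuclear protein of most mature neurons. The table pairs no region with a gene, and an annotation of its build (mm9) was not used here, so regions are named by position and the neuronal label could not be set against marker genes. In bulk nuclei, a different mix of neurons and a different accessibility in each neuron cannot be told apart.

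Reactivated libraries held more of their reads inside the listed regions than Basal libraries did. The share was 19.3%, 14.2%, 13.2% and 16.1% in Basal replicates 1 to 4 (15.7% ± 2.71, SD, n = 4). It was 24.0%, 21.3% and 23.9% in Reactivated replicates 1 to 3 (23.1% ± 1.54, SD, n = 3). The groups did not overlap. The exact 2-sided permutation p, taken as the smaller tail doubled, was 0.0571. No smaller value is possible by this test for 3 against 4 libraries, so no measure of whole libraries can pass 0.05 by it. Library totals were almost equal, at 54266315 to 54269492 reads in Basal and 54257222 to 56251676 in Reactivated. A tested region had a median of 27 to 35 reads in a Basal library and 39 to 45 in a Reactivated one, so single regions carry counting error that falls with their width. The median RPKM of the tested regions was 1.28, 1.04, 0.972 and 1.14 in the Basal replicates and 1.56, 1.41 and 1.54 in the Reactivated replicates. These medians did not overlap either. Because such a difference between libraries can move many regions together, each result is given on the deposited scale and again after each column was divided by its median over the tested regions, called the column-median scale below.

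**Figure D1:**
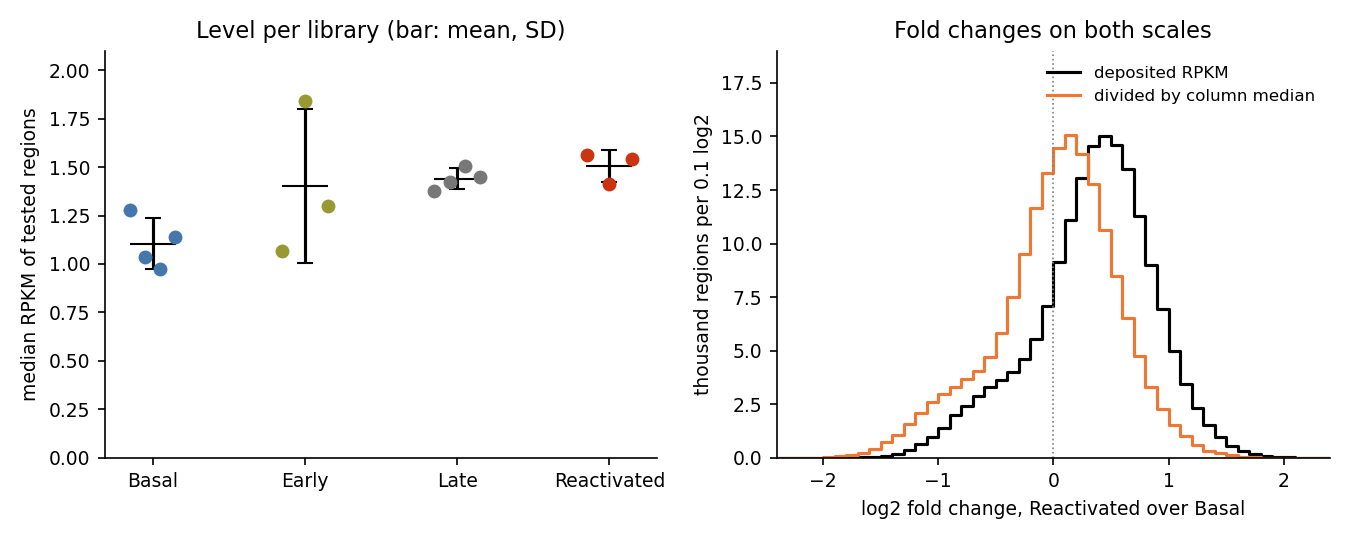
Left, the median RPKM of the 172024 tested regions in each library by group, with points for libraries and bars for the mean and SD. Right, the number of regions per step of log2 fold change of Reactivated over Basal on the deposited scale and on the column-median scale: the median is 0.39 on the first and 0.07 on the second, and both curves have a shoulder on the left.

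On the deposited scale most called regions had higher values in Reactivated, whose libraries also held more of their reads inside regions. Of the tested regions 41764 were higher in Reactivated (24.3% of all tested) and 8235 were lower (4.79%), 49999 in all (29.1%), by limma on log2(RPKM + 0.5) with Benjamini-Hochberg adjusted p under 0.05. The median log2 fold change over all tested regions was 0.39, and 77.1% of regions had a positive value. The middle 90% of regions lay between -0.69 and 1.12. Among the regions called higher the median was 0.90, and among those called lower it was -0.87, against a median standard error of 0.26.

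Gains and losses were nearly even on the column-median scale. There 18046 regions were higher (10.5%) and 17177 were lower (9.99%), 35223 in all (20.5%), with a median log2 fold change of 0.07 and 56.1% of regions positive. Every region called higher on this scale was also called higher on the deposited one, and 8230 regions (4.78%) were called lower on both. No region was called in opposite directions. Column-median scaling lowers most log2 fold changes by similar amounts and brings their median near 0. The nesting of calls and the near balance thus follow largely from the scaling. The scale decided the call for 23718 regions, which were higher as deposited and not called after the column medians were divided out, and for 8947, which were lower on the column-median scale alone. The 3 Reactivated values lay above all 4 Basal values in 59974 regions (34.9%) as deposited and in 27490 (16%) on the column-median scale. They lay below all 4 in 9543 (5.55%) and 23583 (13.7%).

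The count of calls on the deposited scale depended on single libraries: it was 29600 without Basal replicate 2, 27420 without Basal replicate 3, 31377 without Reactivated replicate 1 and 19055 without Reactivated replicate 3. The count on the column-median scale was 21552 without Reactivated replicate 2 and 14893 without Reactivated replicate 3. When limma had each library's share of reads inside regions as a covariate, 0 regions passed on either scale, while 23012 (deposited) and 23814 (column-median) had an unadjusted p under 0.05. That share separated the groups without overlap, so the group and the share cannot be told apart.

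The 3 Reactivated libraries differed from the Basal mean by similar amounts. On the deposited scale the median log2 difference was 0.42 for replicate 1, 0.31 for replicate 2 and 0.42 for replicate 3. Comparisons of Early and Late with the same Basal libraries gave, as deposited, 41173 regions higher in Late (23.9%) and 10376 lower (6.03%), with a median of 0.28. In Early 18824 were higher (10.9%) and 2467 lower (1.43%), with a median of 0.23. All these share the Basal libraries, so they are not independent of the Reactivated comparison. Reactivated against Late shares no Basal library, and it gave 44 regions higher (0.0256%) and 353 lower (0.205%) as deposited, or 1299 (0.755%) and 666 (0.387%) on the column-median scale. Reactivated against Early gave 1624 higher (0.944%) and 717 lower (0.417%) as deposited, or 4395 (2.55%) and 1706 (0.992%) on the column-median scale.

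The balance of higher and lower regions varied with width. Among the 13316 tested regions under 200 bases wide, 1870 were higher and 1876 lower as deposited, with a median log2 fold change of 0.06, and 5.26% and 22.3% were so on the column-median scale, with a median of -0.27. Among the 67473 regions of 200 to under 500 bases 21.5% were higher and 7.40% lower as deposited (median 0.31), and 9.09% and 14.5% on the column-median scale (median -0.01). Losses outnumbered gains below 500 bases on the column-median scale, and as deposited gains were already more frequent from 200 bases on. Among the 60291 regions of 500 to under 1000 bases, 28.6% were higher and 2.04% lower as deposited (median 0.45), and 12.8% and 5.90% on the column-median scale (median 0.13). Among the 28364 regions of 1000 to under 2000 bases the medians were 0.47 and 0.14, with 27.4% higher and 0.44% lower as deposited. The 2580 regions of 2000 bases or more had medians of 0.38 and 0.03, with 15.6% higher and 0.23% lower as deposited.

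The same order was seen library by library. Each library's median log2(RPKM + 0.5) in a width class was taken relative to its own median over all tested regions. For regions under 200 bases it was 0.32, 0.35, 0.35 and 0.33 in the Basal replicates. It was 0.01, 0.14 and -0.10 in the Reactivated replicates, a difference of -0.32. Short regions thus stood above the library median in every Basal library and near it in the Reactivated ones, with no overlap. For regions of 1000 to under 2000 bases the values were 0.10, 0.03, 0.02 and 0.06 in Basal against 0.16, 0.17 and 0.21 in Reactivated, a difference of 0.13 and again without overlap. At 2000 bases or more the groups overlapped, with a difference of 0.03. The exact permutation p was 0.0571 for 4 of the 5 classes (0.0714 adjusted over the 5) and 0.686 for the widest.

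Short regions were thinly covered. A region under 200 bases had a median of 13 reads in Basal and 14 in Reactivated libraries, and the median SD between Basal libraries, on the column-median scale, was 0.44 there against 0.17 for regions of 2000 bases or more. In the other groups the short class was at a median of -0.37 for Late against Basal and -0.17 for Early against Basal on the column-median scale, beside -0.27 for Reactivated. The widest class was at -0.26 for Late against Basal and -0.16 for Early against Basal, beside 0.03 for Reactivated.

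**Figure D2:**
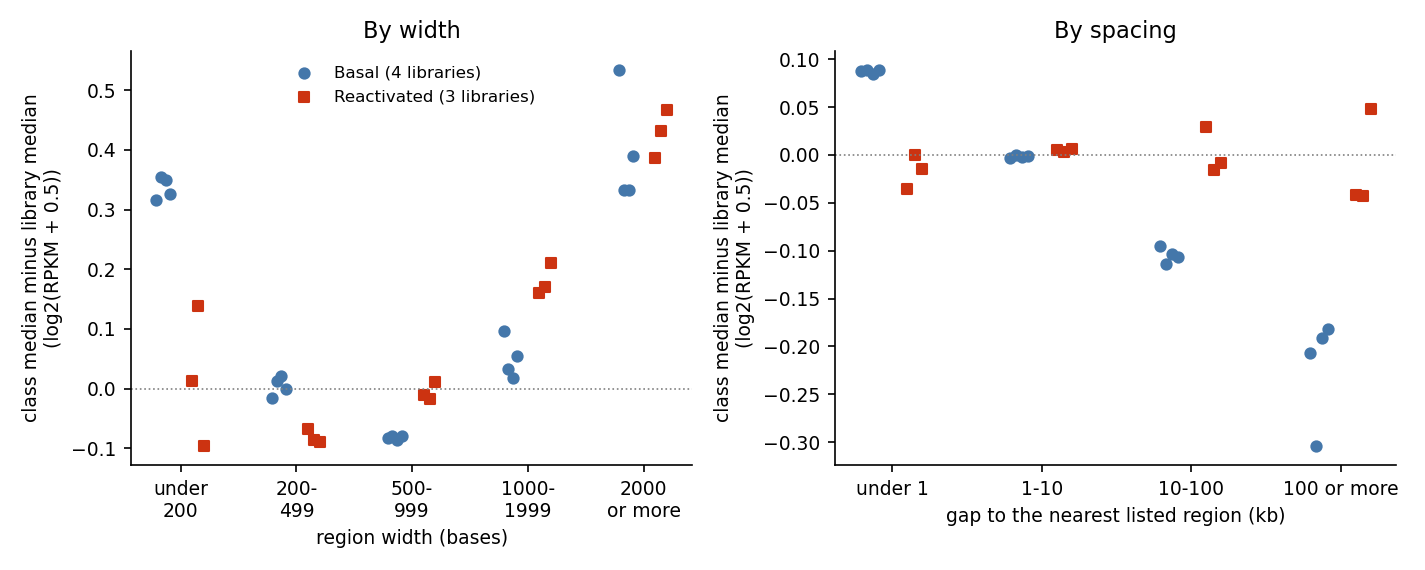
Each point is 1 library's median log2(RPKM + 0.5) in a class of regions minus its median over all tested regions, by region width in bases (left) and by the gap to the nearest listed region (right). Basal libraries stand at 0.32 to 0.35 for regions under 200 bases, and Reactivated libraries at -0.10 to 0.14.

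Isolated regions had larger log2 fold changes than crowded ones, by 0.19 as deposited between gaps of 10 to 100 kb and gaps under 1 kb, though by 0.075 among regions of at least 2 RPKM. The gap to the nearest listed region was under 1 kb for 31334 tested regions, of which 19.5% were higher and 6.56% lower as deposited (median 0.29), and 7.97% and 14.5% on the column-median scale (median -0.04). It was 10 to 100 kb for 26166 regions, of which 29.3% were higher and 3.40% lower as deposited (median 0.48), and 13.2% and 6.58% on the column-median scale (median 0.17). For the 90 regions with no other within 100 kb the medians were 0.60 and 0.32, with 37 higher as deposited and 21 on the column-median scale. The 114434 regions with a gap of 1 to 10 kb were near the whole, with medians of 0.40 and 0.08.

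Relative to the library median, regions with a gap under 1 kb stood at 0.09 in each of the 4 Basal replicates. They stood at -0.04, 0.00 and -0.01 in the Reactivated replicates. Regions with a gap of 10 to 100 kb stood at -0.09, -0.11, -0.10 and -0.11 in Basal and at 0.03, -0.02 and -0.01 in Reactivated, a difference of 0.11. All 4 gap classes were without overlap, with an exact permutation p of 0.0571 each, raw and adjusted. In these 2 classes the 4 Basal libraries differed less among themselves than from any Reactivated library.

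Spacing and width each went with the fold change. Among regions under 200 bases, the column-median value was -0.43 where the nearest region lay within 1 kb (2918 regions, 26.4% lower) and 0.00 where it lay 10 to 100 kb away (1938 regions, 15.4% lower). Among regions of 200 to under 500 bases these values were -0.18 (12529 regions, 20.7% lower) and 0.17 (10644 regions, 8.83% lower). Spacing made less difference to wide regions: at 1000 to under 2000 bases they were 0.10 (4481 regions) and 0.16 (4658 regions). At 2000 bases or more the order was the other way, at 0.03 (323 regions) and -0.01 (461 regions). Counted over 50 kb on either side, the 7583 regions with at most 2 others had medians of 0.53 as deposited and 0.21 on the column-median scale, and the 24679 with 16 or more had 0.33 and -0.00.

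The most accessible regions had the largest gains. In the 10% of tested regions with the highest mean RPKM over all libraries the median log2 fold change was 0.66 as deposited and 0.28 on the column-median scale, with 35.7% higher and 0.76% lower as deposited. In the lowest 10% the medians were 0.28 and 0.01. Since that mean holds the compared libraries, regions were also ordered by the 7 Early and Late libraries alone. By that order the medians ran from 0.07 in the lowest 10% to 0.73 in the highest as deposited, and from -0.23 to 0.36 on the column-median scale, where 1.94% were higher and 20.3% lower at the bottom and 25.6% and 1.24% at the top. This order also sorts regions by how far Early and Late lay from Basal. In its lowest 10% Late against Basal was at -0.42 and Early against Basal at -0.39 on the column-median scale. In its highest 10% they were at 0.14 and 0.24. The part of this in the relation with level was not tested. The added pseudocount of 0.5 understates differences at low levels. Relative to the library median, the highest 10% by Early and Late level stood at 0.86, 0.53, 0.43 and 0.65 in Basal and at 1.01, 0.96 and 1.08 in Reactivated. The lowest 10% stood at -0.16, -0.09, -0.01 and -0.10 in Basal and at -0.35, -0.31 and -0.41 in Reactivated. By this order high regions were set farther above low ones in each Reactivated library than in any Basal library. By the mean over all 14 libraries they were not. The highest 10% then stood at 1.02, 0.67, 0.61 and 0.82 in Basal and at 1.13, 1.00 and 1.11 in Reactivated, the lowest 10% at -0.51, -0.37, -0.35 and -0.42 against -0.56, -0.42 and -0.46, and the groups overlapped in both (exact permutation p = 0.114 and 0.343). By that mean 4 of 10 level classes were without overlap, and by Early and Late level 9 of 10. The distance from low to high regions by Early and Late level was narrowest in Basal replicates 2 and 3, which also had the lowest shares of reads in regions. The part of that share in the relation with level was not tested.

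The difference by width varied with level, here that of Early and Late, an order that also follows how far those groups lay from Basal. In the middle 20% of regions by Early and Late level, the column-median value was -0.59 under 200 bases (2481 regions, 30.4% lower), -0.03 at 200 to under 500 bases, 0.14 at 500 to under 1000 bases, 0.13 at 1000 to under 2000 bases and 0.03 at 2000 bases or more. In the lowest 20% it was -0.23 under 200 bases and -0.34 at 200 to under 500 bases, so the shortest class was not the lowest there. In the highest 20% it was 0.08 under 200 bases and 0.07 at 2000 bases or more, against 0.34, 0.42 and 0.28 in the classes between. The largest share of gains was in the top 20% of level at 500 to under 1000 bases, where 51.5% of 11357 regions were higher as deposited and 31.0% on the column-median scale (medians 0.77 and 0.42).

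Among chromosomes, X stood highest, by 0.27 above the autosomes as deposited, a difference that was 0.0332 among regions of at least 2 RPKM. Its 3365 tested regions had a median log2 fold change of 0.66 as deposited and 0.36 on the column-median scale. As deposited 41.1% of them were higher and 0.30% lower, and on the column-median scale 21.8% and 1.16%. Relative to the library median they stood at -0.25, -0.35, -0.40 and -0.30 in the Basal replicates. They stood at -0.10, 0.02 and 0.13 in the Reactivated replicates, a difference of 0.34. The groups did not overlap, and the 3 Reactivated libraries were spread more widely (SD 0.116) than the 4 Basal ones (SD 0.0654). The share of reads inside listed regions that fell on X was 1.96%, 1.73%, 1.62% and 1.83% in the Basal replicates. In the Reactivated replicates it was 1.90%, 2.09% and 2.20%, so by this measure the groups overlapped. The median on X was 0.40 for Late against Basal and 0.28 for Early against Basal on the column-median scale, beside 0.36 for Reactivated. Since the sex of the pooled mice was not given, its part in the X values was not tested.

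Chromosomes 9 and 16 came next. Chromosome 9 (7188 regions) had medians of 0.53 and 0.21 on the deposited and column-median scales. Its level relative to the library median was -0.06, -0.13, -0.09 and -0.12 in Basal and 0.14, 0.02 and 0.03 in Reactivated. Chromosome 16 (4953 regions) had medians of 0.49 and 0.17, with -0.05, -0.14, -0.12 and -0.07 in Basal and 0.04, 0.03 and 0.04 in Reactivated. Neither overlapped. Leaving out Y (3 tested regions) and the unplaced sequence (6), which had fewer than 20 regions each, the lowest 3 on the column-median scale were chromosome 7 (3422 regions, medians 0.31 and -0.02), chromosome 18 (8282 regions, 0.33 and 0.00) and chromosome 3 (14455 regions, 0.33 and 0.01). Chromosome 7 was at 0.24, 0.08, 0.16 and 0.15 relative to the library median in Basal and at 0.23, 0.06 and 0.03 in Reactivated, so the groups overlapped there. As deposited, chromosome 7 minus the autosomes was -0.08, and -0.22 among regions of at least 2 RPKM. Chromosomes 3 and 18 were higher relative to the library median in every Basal library than in any Reactivated one, by 0.09 and 0.07. Of the 20 chromosomes compared, 12 were without overlap, each with an exact permutation p of 0.0571 (0.0952 adjusted over the 20). The differences other than those of X, 9 and 16 were at most 0.09 in size.

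**Figure D3:**
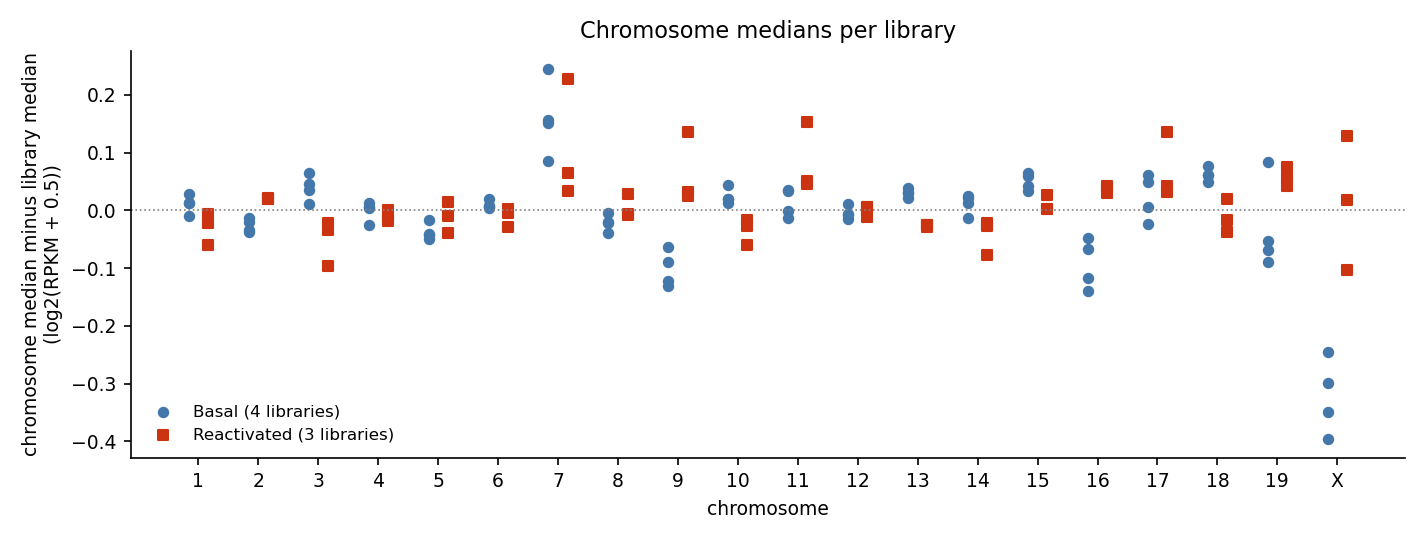
Each point is 1 library's median log2(RPKM + 0.5) over the tested regions of a chromosome minus its median over all tested regions, for Basal and Reactivated. Chromosome X stands at -0.40 to -0.25 in Basal and at -0.10 to 0.13 in Reactivated.

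Windows of 5 Mb showed the same pattern at a finer scale. Of 532 windows with at least 20 tested regions, 405 had a positive median log2 fold change on the column-median scale and 127 a negative one, and 530 were positive as deposited. The median over all tested regions was itself 0.07 on the column-median scale, so 0 was not its centre. Relative to the library median, 104 windows were higher in Reactivated without overlap of the groups, and 87 were lower. All 31 windows on X and all 25 on chromosome 9 were positive on the column-median scale, whereas 18 of the 30 on chromosome 7 were negative. The highest window was X from 60 to 65 Mb, where 34 of 43 regions were higher as deposited and 25 on the column-median scale (medians 1.12 and 0.89). Its level relative to the library median was -0.89, -0.70, -0.70 and -0.61 in Basal and -0.30, 0.05 and 0.30 in Reactivated, without overlap. The windows X 110 to 115 Mb (35 regions, medians 0.91 and 0.68) and X 115 to 120 Mb (27 regions, 0.83 and 0.61) followed, and in the last of these the groups overlapped. Regions there had few reads in Basal libraries, with a median of 9, 8 and 14.5 in the 3 windows, against 33, 25 and 37 in Reactivated libraries.

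The 3 lowest windows were all on chromosome 7. In the window from 10 to 15 Mb, 5 of 25 regions were lower on the column-median scale (medians -0.06 and -0.41). From 110 to 115 Mb the medians over 41 regions were -0.03 and -0.38, and from 15 to 20 Mb over 91 regions they were 0.08 and -0.30. The level in the first was 0.61, 0.48, 0.62 and 0.50 relative to the library median in Basal and 0.28, 0.11 and 0.19 in Reactivated. It was without overlap, as was the second, while the third overlapped. The same 3 windows were at -1.19, -0.65 and -1.15 for Early against Basal, and at -0.22, -0.48 and -0.38 for Late against Basal, on the column-median scale. Across the 532 windows the median was lower where a window held more tested regions (Pearson's r = -0.34, Spearman's rho = -0.36). Over the 501 autosomal windows Pearson's r was -0.20. Windows share libraries and are not replicates, so these are descriptions.

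**Figure D4:**
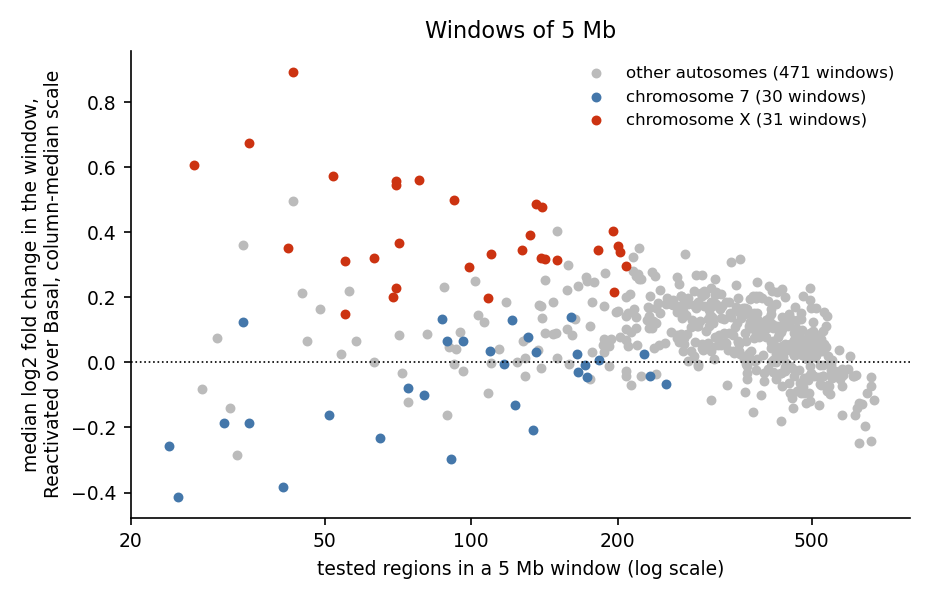
Each point is a 5 Mb window with at least 20 tested regions: the number of tested regions (log axis) against the median log2 fold change of Reactivated over Basal on the column-median scale. All 31 X windows lie above 0, and the 3 lowest windows are on chromosome 7.

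Adjacent regions shared their direction somewhat more often than all regions did. Of 172002 adjacent pairs, the neighbour of a region called higher on the column-median scale was itself higher in 15.6% of cases, against 10.5% of all members of pairs. The neighbour of a region called lower was lower in 15.2%, against 9.98%. Adjacent regions called in opposite directions made up 1.62% of pairs, and the log2 fold changes of neighbours had a Pearson's r of 0.13 across pairs. Both differences were of similar size on the deposited scale, at 30.2% against 24.3% for higher and 9.15% against 4.79% for lower. Of all tested regions 20.5% were called on the column-median scale and 29.1% as deposited, so an uncalled neighbour was common for any region.

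Single regions are named next, by position in mm9 and with the values of every library. They were taken from 22740 regions that were called in the same direction on both scales and had no overlap between the groups, 16302 higher and 6438 lower, so their lack of overlap is a condition of the choice. Their median width was 631 bases for the higher and 310 bases for the lower, against 529 for all tested regions, and 80.8% of the lower were under 500 bases wide, against 35.9% of the higher and 47.0% of all tested. The fold changes and adjusted p-values that follow are from limma on the deposited scale unless the column-median scale is named, with Benjamini-Hochberg adjustment over the 172024 tested regions.

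The largest gain was at chr4:70407005-70407241, 236 bases wide. It had 0.0781, 0.156, 0.312 and 0.703 RPKM in the Basal replicates and 1.81, 3.36 and 6.17 in the Reactivated replicates, a log2 fold change of 2.32 (SE 0.47, adjusted p = 0.0034). The Basal libraries had only 1 to 9 reads at this site. No listed value was below 1 read, so 1 read may stand for none. Late nuclei had a mean of 3.12 RPKM and Early nuclei 2.19, the latter between 0.234 and 5.23.

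At chr1:20123128-20123410 the Basal replicates had 0.131, 0.327, 0.327 and 0.196 RPKM and the Reactivated replicates 1.70, 3.73 and 4.51 (2.28, SE 0.39, adjusted p = 0.0020). At chr12:60186052-60186399 they had 0.425, 0.372, 0.0531 and 0.319 against 3.12, 2.97 and 3.61 (2.26, SE 0.33, adjusted p = 0.0015). In both, the lowest Reactivated value was several-fold above the highest Basal one. At chr4:78882882-78883040 the values were 0.467, 0.233, 0.467 and 0.233 against 3.15, 2.57 and 5.13 (2.24). The tightest of these groups was at chr4:110100360-110100546, with 0.198, 0.198, 0.0991 and 0.396 against 2.39, 2.58 and 3.07 RPKM (2.15, SE 0.26, adjusted p = 0.0013).

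The region chr6:86687549-86687808 stood apart in the Early group. It had 0.569, 0.213, 0.285 and 0.356 RPKM in Basal and 3.84, 3.13 and 3.49 in Reactivated (2.23, SE 0.30, adjusted p = 0.0015). Early nuclei had a mean of 0.664 RPKM and Late nuclei 2.504. Of the 8 regions with the largest gains it was alone in differing from Early, with a log2 fold change of Reactivated over Early of 1.91 (adjusted p = 0.023). None of the 8 passed against Late by limma, where the smallest adjusted p was 0.56 as deposited and 0.50 on the column-median scale. The remaining 2, chr9:59236280-59236429 and chr2:14459386-14459765, had log2 fold changes of 2.24 and 2.18. All 8 were under 400 bases wide, with 1 to 26 reads in Basal libraries and 17 to 136 in Reactivated ones.

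The 8 largest losses were shorter still, at 92 to 159 bases. The largest was at chr10:124436193-124436298, with 4.39, 3.16, 5.09 and 2.81 RPKM in Basal and 1.02, 0.527 and 0.176 in Reactivated, a log2 fold change of -2.07 (SE 0.29, adjusted p = 0.0015). It was the one of the 8 that was also lower than both Late (-1.35, adjusted p = 0.042) and Early (-1.96, adjusted p = 0.020). At chr1:102702981-102703102 the values were 1.67, 3.96, 2.28 and 4.26 against 0.735, 0.305 and 0.152 RPKM (-1.96, SE 0.29, adjusted p = 0.0015). No Reactivated library reached the lowest Basal value in either.

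At chr6:66656589-66656704 the Basal replicates had 3.85, 4.49, 3.05 and 4.17 RPKM and the Reactivated replicates 0.464, 1.28 and 0.321 (-1.96). At chr3:157040187-157040321 they had 4.40, 2.61, 1.79 and 3.44 against 0.398, 0.275 and 0.550 (-1.93). The other 4, chr2:60532756-60532891, chr3:21064671-21064771, chr5:68740334-68740426 and chr15:11493401-11493560, had log2 fold changes of -1.91 to -1.84. Over the 8 losses the Reactivated libraries had 1 to 8 reads and the Basal ones 11 to 32, so counting error is large in the low group. There too 1 read may stand for none. All 16 largest gains and losses kept their call under every alternative in which they were tested but one, the covariate for reads inside regions, under which all lost it.

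**Figure D5:**
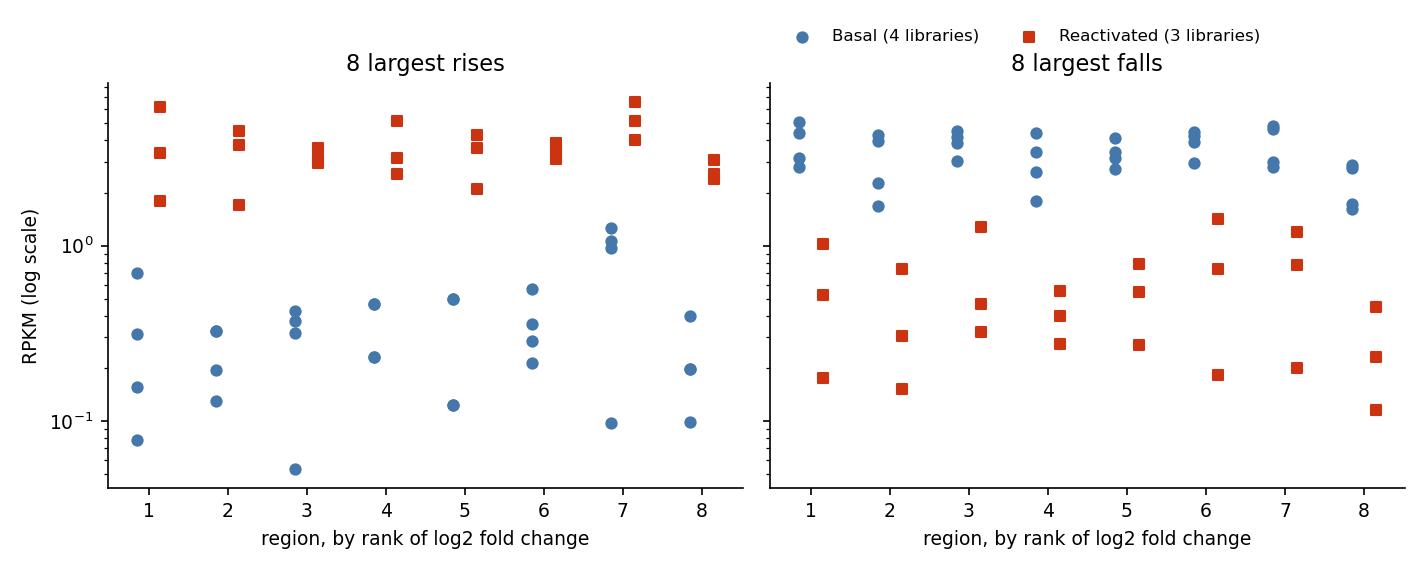
RPKM (log axis) of the 7 Basal and Reactivated libraries in the 8 regions with the largest gains and the 8 with the largest losses, by rank of log2 fold change. The largest gain (rank 1 at left) lies at 0.0781 to 0.703 RPKM in Basal and 1.81 to 6.17 in Reactivated, and the largest loss (rank 1 at right) at 2.81 to 5.09 and 0.176 to 1.02.

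The 3 widest regions that were higher lay beside each other in the first listed stretch of chromosome 9. The widest, chr9:3023469-3032951 (9482 bases), had 0.667, 0.744, 1.09 and 0.639 RPKM in Basal and 2.96, 4.19 and 2.03 in Reactivated (1.44, SE 0.23, adjusted p = 0.0016). Early nuclei had 0.879 and Late nuclei 0.882 RPKM on average, and Reactivated was higher than both (1.33 each, adjusted p = 0.023 and 0.0075). At chr9:3000001-3004815 the log2 fold change over Basal was 1.48 and at chr9:3033826-3038220 it was 1.46, each also higher than in Early and Late. These 3 differed from most other named gains in that the Early and Late libraries stood with Basal.

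A further set of gains had far higher values. At chr9:35112799-35113174 the Basal replicates had 26.8, 38.2, 49.4 and 28.7 RPKM and the Reactivated replicates 153.5, 179.7 and 90.4 (1.95, SE 0.36, adjusted p = 0.0026). At chr2:98506396-98507470 they had 41.5, 45.8, 63.0 and 40.7 against 164.6, 164.0 and 92.9 (1.52, SE 0.35, adjusted p = 0.0061). At chr2:98502391-98503129 they had 25.1, 31.5, 42.2 and 27.4 against 74.3, 91.8 and 53.8 (1.20, SE 0.33, adjusted p = 0.014). Late nuclei were far below both groups there, at 6.85, 4.96 and 5.93 RPKM. On the column-median scale the last of these lost its call (0.75, adjusted p = 0.059), and the values at chr2:98506396-98507470 overlapped though the call held (1.07, adjusted p = 0.011).

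These were among the 5 tested regions with the highest mean RPKM of all, and the other 2 were not called. The region chr17:39979978-39985726 had 90.7, 75.8, 89.7 and 86.8 RPKM in Basal and 100.04, 87.2 and 90.2 in Reactivated (0.11, SE 0.34, adjusted p = 0.81). Its groups overlapped, while Early nuclei were at 33.8 and Late nuclei at 14.6 RPKM. Its value after column-median scaling was -0.34, also not called (adjusted p = 0.21). The region chrX:139917553-139917648 had 40.3, 37.0, 57.2 and 36.1 against 87.8, 68.5 and 38.4 RPKM (0.54, SE 0.36, adjusted p = 0.23). In the 4 of these regions other than that on chromosome 17, the lowest Reactivated value was that of replicate 3. No source used here says whether reads that match several places in the genome were kept, and their part in these values was not tested.

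Other high regions had moderate gains. At chr15:74424229-74425317 the Basal replicates had 9.91, 7.13, 6.96 and 8.94 RPKM and the Reactivated replicates 23.9, 16.8 and 19.99 (1.24, SE 0.29, adjusted p = 0.0065). Only 17947 bases away, chr15:74443264-74443378 was lower, at 8.40, 8.08, 7.11 and 5.33 against 4.99, 3.56 and 3.07 (-0.83, SE 0.30, adjusted p = 0.044). The latter call was lost in 8 of 20 alternatives, 5 of them with a single library left out (Basal replicates 1, 2 or 3, Reactivated replicates 2 or 3), whereas the former was lost in 1. At chr13:8884519-8885622 the values were 9.22, 5.45, 4.13 and 7.38 against 14.8, 12.2 and 13.2 (1.03, SE 0.35, adjusted p = 0.031), a call lost without any one of Basal replicates 2 and 3 and Reactivated replicates 1, 2 and 3.

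Among the isolated regions, 2 on chromosome X were higher. At chrX:114672355-114673532, with the nearest listed region 218763 bases away, Basal replicates had 2.13, 1.36, 0.939 and 1.91 RPKM and Reactivated replicates 2.70, 3.805 and 4.92 (1.05, SE 0.32, adjusted p = 0.020). At chrX:124071579-124072082, 209288 bases from the next, they had 0.476, 0.366, 0.0733 and 0.696 against 1.20, 1.10 and 1.47 (1.00, SE 0.27, adjusted p = 0.012). Both calls were lost without Reactivated replicate 3, and the first also without Basal replicate 3. The most isolated losses were at chrX:80732195-80732490, with 1.69, 1.50, 2.06 and 1.94 against 0.422, 0.250 and 0.312 (-1.47, SE 0.22, adjusted p = 0.0015), and at chr11:89253288-89253500, with 2.61, 1.83, 1.83 and 1.91 against 1.01, 0.608 and 1.04 (-0.88, SE 0.22, adjusted p = 0.0086). Late nuclei stood with Reactivated in both, at 0.344 and 0.605 RPKM.

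The widest regions that were lower had small losses. At chr14:17684837-17688775 (3938 bases) the values were 1.69, 1.56, 1.33 and 1.47 against 1.04, 0.557 and 0.711 RPKM (-0.68, SE 0.21, adjusted p = 0.022), a call lost without Reactivated replicates 2 or 3. At chr10:57693748-57696866 (3118 bases) the log2 fold change was -0.65 (adjusted p = 0.028), lost without Basal replicates 2 or 3 or Reactivated replicates 2 or 3. At chr1:26742887-26745181 (2294 bases) it was -0.70 (adjusted p = 0.043), lost without any one library but Basal replicate 1. The highest regions that were lower were chr17:36368206-36368548, at 10.6, 7.76, 9.97 and 8.62 against 4.16, 4.69 and 4.85 RPKM (-0.93, SE 0.26, adjusted p = 0.014), and chr1:90135238-90135465, at 6.98, 7.55, 9.498 and 9.66 against 5.01, 4.71 and 3.41 (-0.87, SE 0.30, adjusted p = 0.033). The former was lost without Reactivated replicate 1 and the latter without any one library but Basal replicate 1. At the first of these Early nuclei were lower than both, at 3.09 RPKM.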

How the data were processed

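The authors deposited 1 table of RPKM values for 191271 regions in 14 libraries, with mm9 coordinates as in the table. No source used here says whether starts count from 0 or 1. Bowtie2 2.0, SAMtools, MACS2, DiffBind, DESeq2 and mm9 are named per the submitters' processing notes, without role or order. Pooling before peak calling and the handling of duplicates and cut positions, which set region borders and high values, are not given in the sources used here. RPKM values multiplied by region length came out as whole reads (100% within 0.01), from which depths were taken.

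Regions with a mean of at least 0.83 RPKM were tested. Just below this limit (0.81 to 0.83, 1645 regions) the median log2 fold change of Reactivated over Basal was 0.32, and just above (0.83 to 0.85, 1859 regions) it was 0.28. Values were log2(RPKM + 0.5), fitted for all 14 libraries and 4 groups in 1 limma model (limma 3.58.1, R 4.3.3, intensity trend, robust, 2-sided, Benjamini-Hochberg, threshold 0.05). On the column-median scale each column was divided by its median and multiplied by the mean of the medians. The fit was tested on simulated data. Classes of width, gap and level are counts and medians, and library medians were compared by exact permutation (scipy 1.17.1, Python 3.11.15). No label used here says whether the replicate numbers pair samples, and the main fit did not pair them. Correlations of same-numbered deviations were -0.09 to 0.07 as deposited and -0.10 to 0.06 on the column-median scale. Such correlations cannot show whether libraries were prepared together.

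Named regions were called on both scales without overlap. The rule took the 8 largest log2 fold changes each way (above the median level, over 100 kb apart), the 3 widest, the 3 highest and the 2 most isolated each way, and the 5 highest of all tested. Chromosomes and 5 Mb windows are the 3 highest and 3 lowest on the column-median scale. The comparison, classes and rule were chosen with earlier results of these data known. Alternatives were other pseudocounts, filters, scalings, weights, covariates and left-out libraries. Early replicate 2 and the Late group were left out as alternatives chosen after seeing the data.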

Additional observations from a re-analysis of the deposited data

Results flagged for a closer look

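One measure had a Basal library far from the others. At chr11:89253288-89253500 Basal replicate 1 had 2.61 RPKM, and the other 3 had 1.83 to 1.91, so the gap to the nearest was 0.889 of the group's whole range, above Dixon's critical value for 4 samples. It was 1 of 67 Basal groups checked, and chance flags about 1 group in 20. The Reactivated values there were 0.608 to 1.04 RPKM, below all 4 Basal values.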

How the results depend on the processing

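Calls moved with scaling, filter and libraries. As deposited (49999 calls, 41764 higher, 8235 lower), a filter of 2 RPKM gave 12360 (11872 and 488), median-of-ratios scaling 15106 higher and 18703 lower, quantile normalization 28016 (13801 and 14215), column-median scaling 18046 higher and 17177 lower, Late averaged to 1 sample 27702 higher, and Late left out 33294 (27634 higher). Leaving out 1 Basal or Reactivated library gave 19055 to 54378 (15872 to 47178 higher, 3183 to 7200 lower), and leaving out Early replicate 2 gave 70074 (59722 and 10352). On the column-median scale (35223 calls), a filter of 2 RPKM gave 5489 (3144 and 2345), Late averaged 11044 higher, and Late left out 11023 higher. Leaving out 1 compared library gave 14893 to 34014 (7068 to 17750 higher, 7825 to 16264 lower), and Early replicate 2 41727 (21499 and 20228). With the covariate for reads inside regions limma left 0 calls on both scales (23012 and 23814 at an unadjusted p under 0.05). The replicate block gave 35834 calls (29553 higher, 6281 lower) as deposited and 26178 (12396 and 13782) on the column-median scale. Whether the numbers pair samples is not labelled. As deposited, Reactivated replicates 1, 2 and 3 correlated best with Basal replicates 3, 2 and 1, at 0.06, 0.07 and 0.05. The median log2 fold change of 0.39 became 0.51 with a pseudocount of 0.1, 0.63 with the filter of 2, 0.54 with precision weights on recovered reads, 0.0726 with column medians, 0.0254 with median of ratios, 0.0545 with quantiles and 0.0275 with the covariate, and 0.34 to 0.45 with 1 library left out. The difference between widely and closely spaced regions (0.19) became 0.26 and 0.15 with pseudocounts of 0.1 and 1 and 0.075 with the filter of 2. The difference between the highest and lowest levels (0.38) became 0.66 when ordered by Early and Late, and was not run with the filter of 2. With that filter X minus autosomes (0.27) became 0.0332 and chromosome 7 minus autosomes (-0.08) became -0.22. Not taken relative to the library median, the class differences turned positive: 0.0058 under 200 bases, 0.24 at 200 to under 500 bases, 0.22 for gaps under 1 kb, and on chromosomes 1, 3, 4, 6, 7, 10, 13, 14, 15 and 18, 0.28, 0.23, 0.32, 0.30, 0.27, 0.27, 0.27, 0.27, 0.29 and 0.25; the subtracted library difference was 0.32. The uncalled chr17:39979978-39985726 turned to -0.34, -0.40 and -0.72 with column medians, median of ratios and quantiles, and chrX:139917553-139917648 to -0.33 with quantiles. Beyond what the scalings subtract, the cause was not tested. Depth limits regions under 200 bases most, at a median of 13 reads in Basal libraries.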

Other observations

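Some consecutive regions were all called in one direction. The stretches below were picked after their values were seen and carry no test of their own. The longest on the deposited scale was 16 consecutive tested regions higher in Reactivated on chromosome 13, from 21261553 to 21390525, with log2 fold changes of 0.90 to 1.52. Their mean was 2.19, 1.35, 1.27 and 1.82 RPKM in the Basal replicates and 3.96, 3.86 and 4.50 in the Reactivated replicates, and it was 2.87 in Early and 3.19 in Late nuclei. On the column-median scale 12 of these in a row were higher (21291707 to 21371843), followed by 10 from 23617930 to 23666697 and 8 from 21939787 to 22006891, so the 3 longest stretches of gains on that scale were all within a few megabases of chromosome 13. The stretch of 10 had a mean of 3.61, 1.90, 1.83 and 3.37 RPKM in Basal and 6.13, 6.197 and 6.99 in Reactivated, and 3.88 in Early and 3.70 in Late nuclei. Another 13 consecutive gains as deposited lay on chromosome 16, from 79435028 to 79719434, with 0.628, 0.483, 0.463 and 0.763 RPKM in Basal and 1.45, 1.79 and 2.31 in Reactivated.

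The longest stretch of losses on the column-median scale was the first 8 tested regions of chromosome 3, from 3000241 to 3033579. They had a mean of 1.35, 2.23, 2.28 and 2.11 RPKM in Basal and 1.21, 0.589 and 0.780 in Reactivated, and 7 of the 8 were lower as deposited too. The first 3 tested regions of chromosome 9, by contrast, were all higher on both scales, and also higher than in Early and in Late. The part of reads that match several places in the genome was not tested in either stretch.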
